A study of Mus musculus with 13 samples.

Results

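The genes described here are 7 genes whose transcription marks the step of mouse pluripotent cells out of the naive state: the growth factor gene Fgf5 and the transcription factor genes Otx2, Pou3f1, Zic2, Foxd3, Sox3 and Sall2. They were picked by gene symbol from a table of 24470 genes, by a rule that uses no measured value, and all 7 had a row. The list of symbols itself was drawn up with earlier results of these data known. The levels come from 5 mRNA libraries and the open chromatin from 8 lists of ATAC peaks, all from E14 mouse embryonic stem cells of 129/Ola background. E14 is 1 established line, and the labels name no added allele, differentiation step or drug treatment. Every culture was kept in medium with fetal bovine serum and Leukemia Inhibitory Factor, so no group is a differentiated one, and the groups differ in cell number, in the day of the experiment and in the ATAC protocol. Low-input ATAC and mRNA libraries were made from the same cells in 2 experiments on different days: 10000 and 20000 cells in each experiment, and 5000 cells in experiment 2 only. Omni-ATAC lists, from a separate published protocol, came from 5000, 10000 and 50000 cells, with 1 library each and no mRNA. Nothing in the labels says that libraries of 1 experiment came from separate cultures, so the p-values measure the spread between these libraries only.

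In the early mouse embryo and in culture, naive pluripotent cells resemble the epiblast before implantation, and primed cells resemble it afterwards. Between them lies the formative state, in which the naive transcription factors go down and Otx2, Pou3f1 and Fgf5 come up before any lineage gene does. Otx2 protein acts with Oct4, the product of Pou5f1, at enhancers that open in this step. Cultures in serum and Leukemia Inhibitory Factor are known to hold a mixture of naive cells and cells that have moved some way out of that state. In bulk libraries such as these, fewer cells that express a gene and less RNA of it per cell cannot be told apart.

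The mRNA libraries held 13727122 to 20426252 counts, and a level is given in CPM, the count scaled to the total of its library. The line's identity genes were high in all 5 libraries: Pou5f1 lay between 151 and 233 CPM, Nanog between 207 and 251 CPM, Sox2 between 137 and 179 CPM and Zfp42 between 320 and 466 CPM. The experiments stood apart from each other. Between the 4 libraries from 10000 and 20000 cells, edgeR's quasi-likelihood test called 1567 of 12523 genes at an adjusted p under 0.05. Genes of chromosome 8 had a median log2 fold change of 0.46 in experiment 2 over experiment 1, against 0.001 for all genes tested, and those of chromosome 15 had −0.29. The Y-linked genes Ddx3y, Eif2s3y and Uty had 0 counts in both libraries of experiment 1 and between 25 and 230 counts in the 3 libraries of experiment 2. Kdm5d, also Y-linked, had 0 counts in every library. The 51 genes placed on chromosome Y summed to 143 to 151 CPM in experiment 1 and to 201 to 241 CPM in experiment 2. In every comparison of the experiments, the day and any difference in the source or the chromosomes of the cultures cannot be told apart.

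In CPM, which are not scaled for gene length, Foxd3 was transcribed at a moderate level, Pou3f1, Zic2 and Otx2 at a low level, and Fgf5, Sox3 and Sall2 at or near the counting floor. The floor, the level of 3 counts, was 0.147 to 0.219 CPM in these libraries. Of the 4 genes with enough counts for a test, Zic2 alone differed between the experiments in the libraries from 10000 and 20000 cells. These had 4.37 ± 0.531 CPM (SD, n = 2) of Zic2 in experiment 2 against 0.754 ± 0.448 CPM (SD, n = 2) in experiment 1. The library from 5000 cells of experiment 2, left out of the test, had 0.895 CPM, within the range of experiment 1. The call of Zic2 was lost in 2 of the checks given below. None of the 4 differed between 10000 and 20000 cells. A mean under 1 CPM, as Fgf5, Sox3 and Sall2 had, is the state of 53.0% of all genes in the table.

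**Figure D1:**
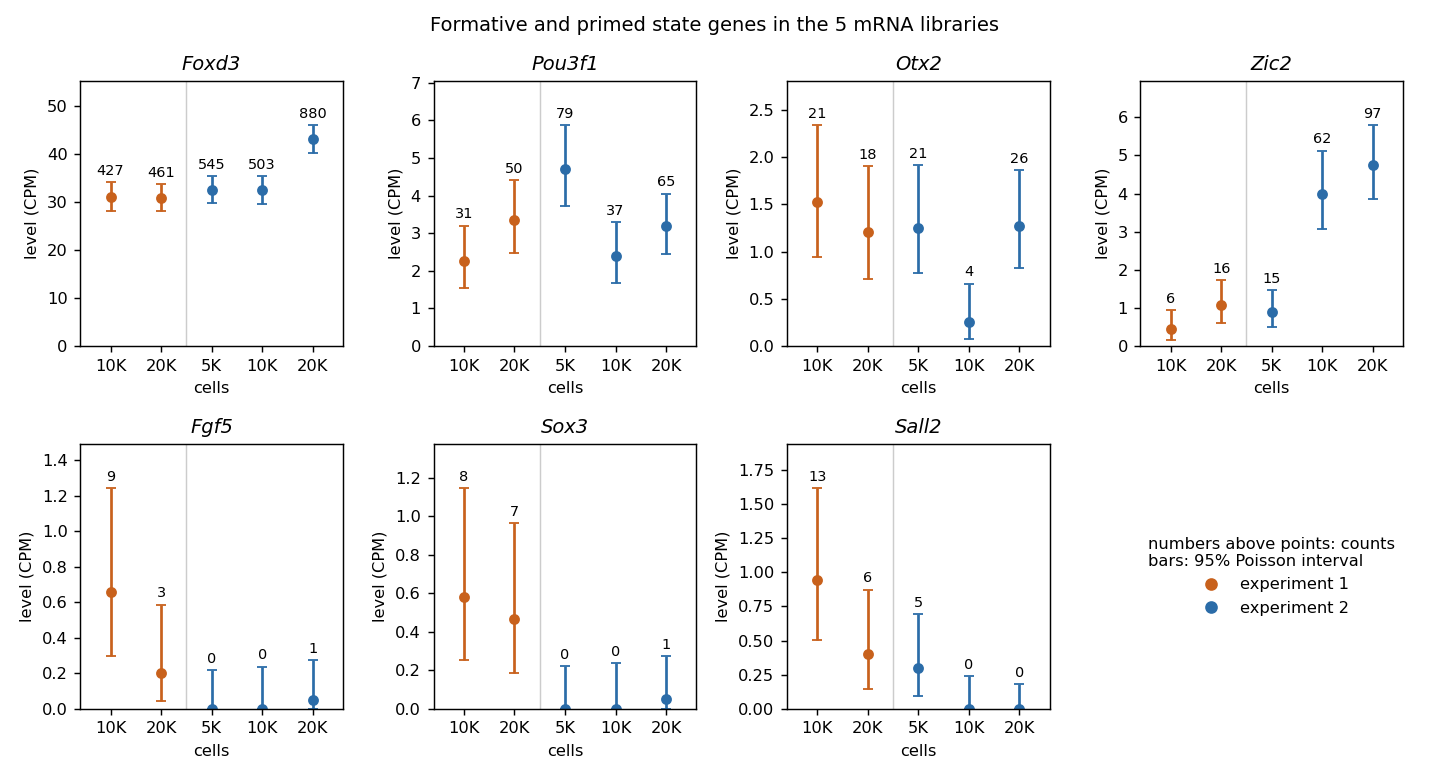
Level in CPM of each of the 7 genes in the 5 mRNA libraries, with bars for the 95% Poisson interval of the count and the count itself above each point. Orange points are experiment 1 and blue points experiment 2, and each panel has its own scale. Foxd3 lies between 30.8 and 43.1 CPM, Zic2 is high in the libraries from 10000 and 20000 cells of experiment 2 alone, and Fgf5, Sox3 and Sall2 reach at most 0.947 CPM.

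Fgf5 (gene ID 14176, chr5:98254184-98277033 on the plus strand of mm10) encodes a secreted fibroblast growth factor and is the standard marker of the epiblast after implantation. It had 9 counts (0.656 CPM) in the library from 10000 cells and 3 counts (0.201 CPM) in that from 20000 cells of experiment 1. In experiment 2 it had 0 counts from 5000 cells, 0 counts from 10000 cells and 1 count (0.0490 CPM) from 20000 cells. Both libraries of experiment 1 were thus above all 3 of experiment 2, although the counting intervals of neighbouring libraries overlapped. Summed over libraries, the level in experiment 1 was 22.1 times that in experiment 2, with a 95% interval of 3.26 to 943 that covers counting error only. The gene fell under the filter on low counts, and with no filter the difference did not pass edgeR's test (adjusted p = 0.621).

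The start of Fgf5 is shown because it is rich in CpG and lies under a peak, while its mRNA was at the floor in most libraries. The RefSeq window from 250 bases before to 50 bases after the start (GRCm38.p6, chr5:98253934-98254233, plus strand) holds 29 CpG and 68.3% G and C. The median over 32851 such windows is 7 CpG and 52.7%, and 87.1% of windows hold fewer CpG than Fgf5. Capitals mark a GC box, GGGCGG, here on the other strand as CCGCCC, and a SOX and LEF core, ACAAAG. These letters occur on either strand in 35.7% and 18.7% of all windows, and no octamer ATGCAAAT, no TAATCC, no CCAAT and no CACGTG is in this window.
Fgf5: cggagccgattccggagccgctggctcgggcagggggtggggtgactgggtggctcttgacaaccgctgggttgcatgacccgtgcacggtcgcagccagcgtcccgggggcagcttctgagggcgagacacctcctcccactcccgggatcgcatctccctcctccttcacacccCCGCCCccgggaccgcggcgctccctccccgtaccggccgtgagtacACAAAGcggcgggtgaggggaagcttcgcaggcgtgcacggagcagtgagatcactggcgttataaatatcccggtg

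Foxd3 (gene ID 15221, chr4:99656299-99658671, plus strand) encodes a forkhead repressor that the epiblast and embryonic stem cells need and that neural crest cells use later. It had 427 counts (31.1 CPM) and 461 counts (30.8 CPM) from 10000 and 20000 cells in experiment 1. In experiment 2 it had 545 counts (32.5 CPM), 503 counts (32.4 CPM) and 880 counts (43.1 CPM) from 5000, 10000 and 20000 cells. The library from 20000 cells of experiment 2 was above the other 4, and its counting interval of 40.3 to 46.0 CPM was apart from theirs. The other 4 libraries lay between 30.8 and 32.5 CPM and their intervals overlapped. The mean was 34.0 ± 5.13 CPM (SD, n = 5), a coefficient of variation of 15.1%, and 83.2% of the 19886 genes with a count had a lower mean. All 3 libraries of experiment 2 were above both of experiment 1, but the log2 fold change of 0.29 ± 0.17 (SE) did not pass the test (adjusted p = 0.306). Leaving out the library from 20000 cells of experiment 2 took it to 0.08.

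Foxd3, with a mean of 34.0 CPM, had no peak within 1000 bp of its start in any of the 8 lists. Its start is therefore printed. The window (GRCm38.p6, chr4:99656049-99656348, plus strand) holds 25 CpG and 65.7% G and C, more CpG than 81.6% of windows. Capitals mark an E-box, CACGTG, which 7.15% of windows hold on either strand. None of the other 5 sets of letters is in it.
Foxd3: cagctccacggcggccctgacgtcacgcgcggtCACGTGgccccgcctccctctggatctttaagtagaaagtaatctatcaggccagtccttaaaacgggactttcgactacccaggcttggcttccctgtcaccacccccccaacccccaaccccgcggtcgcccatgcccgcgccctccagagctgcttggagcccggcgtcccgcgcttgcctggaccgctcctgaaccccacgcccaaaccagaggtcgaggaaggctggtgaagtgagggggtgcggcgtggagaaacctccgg

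Pou3f1 (gene ID 18991, chr4:124657646-124660655, plus strand) encodes the POU factor Oct6, an early gene of the formative state. It had 31 counts (2.26 CPM) and 50 counts (3.35 CPM) from 10000 and 20000 cells in experiment 1. Its counts in experiment 2 were 79 (4.71 CPM), 37 (2.39 CPM) and 65 (3.18 CPM) from 5000, 10000 and 20000 cells. The experiments overlapped. In order of level came both libraries from 10000 cells, both from 20000 cells and then the one from 5000 cells, and the counting intervals of neighbours in this order overlapped. The mean was 3.18 ± 0.982 CPM (SD, n = 5). The fold change between experiments, fitted without the library from 5000 cells, was −0.01 ± 0.49 on the log2 scale (adjusted p = 0.996), and its sign changed with the processing. The library from 5000 cells had the highest level, 1.66 times that of the other libraries of experiment 2 together, with a counting interval of 1.22 to 2.25 and no replicate.

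Otx2 (gene ID 18424, chr14:48657677-48667644, minus strand) encodes the homeodomain factor that drives the change of enhancers in the formative state and later the forebrain. It had 21 counts (1.53 CPM) and 18 counts (1.20 CPM) from 10000 and 20000 cells in experiment 1. In experiment 2 it had 21 counts (1.25 CPM), 4 counts (0.258 CPM) and 26 counts (1.27 CPM) from 5000, 10000 and 20000 cells. Of the 5 libraries, 4 lay between 1.20 and 1.53 CPM with overlapping intervals, and the library from 10000 cells of experiment 2 was apart below them. The log2 fold change between experiments was −0.80 ± 0.85 (adjusted p = 0.618). Without that library it was −0.09, and without the library from 20000 cells of experiment 2 it was −2.35, with no call in either fit. The antisense gene Otx2os1, which starts next to Otx2 and points away from it, had 0 counts in all 5 libraries.

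Zic2 (gene ID 22772, chr14:122475384-122480328, plus strand) encodes a zinc finger factor of enhancers in stem cells and of the early neural plate. Experiment 1 gave 6 counts (0.437 CPM) from 10000 cells and 16 counts (1.07 CPM) from 20000 cells. In experiment 2 there were 62 counts (4.0 CPM) from 10000 cells and 97 counts (4.75 CPM) from 20000 cells, yet only 15 counts (0.895 CPM) from 5000 cells. The library from 5000 cells thus lay between those of experiment 1, and the 2 larger samples of experiment 2 were apart above all others.

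In the test of the experiments, fitted on the 4 libraries from 10000 and 20000 cells, Zic2 was higher in experiment 2 by 2.51 ± 0.57 on the log2 scale (adjusted p = 0.004). It was 1 of the 4 members tested, where 5.75% of all genes tested were called higher. No tested member was called lower by edgeR, where 6.76% of all genes were, and Zic2 was the one member with an unadjusted p under 0.05. DESeq2 gave 2.54 for Zic2, and less the median of chromosome 14 the value was 2.37. With the library from 5000 cells added to experiment 2, the log2 fold change was 2.09 and the call was lost (adjusted p = 0.0540). It was also lost without the library from 20000 cells of experiment 2 (2.40, adjusted p = 0.0977). Within experiment 2, the level from 5000 cells was 0.202 times that of the other libraries, with a counting interval of 0.111 to 0.344.

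Zic5, which lies next to Zic2 and belongs to the same family, had 0 and 3 counts in experiment 1 and 20 counts in each of the 3 libraries of experiment 2. Its level was 0.100 ± 0.142 CPM (SD, n = 2) against 1.13 ± 0.220 CPM (SD, n = 2), and the difference did not pass the test (3.36 ± 1.24, adjusted p = 0.0776). The library from 5000 cells had 1.19 CPM of Zic5, close to the other libraries of experiment 2 (ratio 1.07, interval 0.594 to 1.88), unlike its Zic2. Among neural markers, Pax6, a homeodomain gene of the neural tube and eye, was called higher in experiment 2 as well. It had 2 and 0 counts in experiment 1, and 93, 108 and 72 counts from 5000, 10000 and 20000 cells in experiment 2. The 5 neural markers summed to 4.59 to 5.62 CPM in experiment 1 and 11.1 to 14.4 CPM in experiment 2. Pax6 alone had 0 and 0.146 CPM in experiment 1 and between 3.52 and 6.96 CPM in experiment 2, and the other 2 that were tested, Sox1 (0.57 ± 0.47, adjusted p = 0.485) and Nes (0.67 ± 0.49, adjusted p = 0.434), were not called. In the library from 5000 cells this sum was 11.5 CPM and Zic2 was at 0.895 CPM, with no replicate. Of the 3 fibroblast markers tested, Vim was called higher, from 112 ± 5.43 to 307 ± 14.2 CPM (SD, n = 2 each), Thy1 was called lower (−2.19 ± 0.21), and Col1a1 was not called (−0.99 ± 0.86). The part of these markers' cells in the Zic2 value was not tested.

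Sox3 (gene ID 20675, chrX:60891366-60893430, minus strand) encodes an HMG box factor of the epiblast and neural progenitors, closely related to Sox2. It had 8 counts (0.583 CPM) and 7 counts (0.468 CPM) from 10000 and 20000 cells in experiment 1. Experiment 2 gave 0, 0 and 1 count from 5000, 10000 and 20000 cells, the last 0.0490 CPM. The experiments did not overlap, and the summed level of experiment 1 was 27.6 times that of experiment 2, with a counting interval of 4.24 to 1161. It was too low for the test, and with no filter it did not pass (adjusted p = 0.523).

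Sall2 (gene ID 50524, chr14:52311177-52328670, minus strand) encodes a zinc finger factor of the spalt family that is known from neural development. It had 13 counts (0.947 CPM) and 6 counts (0.401 CPM) from 10000 and 20000 cells in experiment 1. In experiment 2 it had 5 counts (0.298 CPM) from 5000 cells and 0 counts from 10000 and from 20000 cells. The experiments did not overlap, although the counting intervals of the library from 5000 cells and of both libraries of experiment 1 did. The summed level of experiment 1 was 6.98 times that of experiment 2 (19 against 5 counts, interval 2.52 to 23.9). With no filter the gene had an unadjusted p of 0.0270 in edgeR's test and did not pass after adjustment (adjusted p = 0.186).

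Sall2 has 2 RefSeq starts and they differ in base composition, which is why both are printed. The window of the start in the count table (GRCm38.p6, chr14:52328621-52328920, minus strand) holds 1 CpG and 30.3% G and C, and 5.43% of windows hold fewer CpG. That of the inner start (chr14:52316274-52316573, minus strand) holds 10 CpG and 65.0% G and C. Capitals in the outer window mark the letters of a CCAAT box, found on either strand in 37.4% of windows, and the inner window holds none of the 6 sets of letters. A peak within 1000 bp was found at the inner start in the Omni-ATAC list from 50000 cells and at the outer start in no list.
Sall2 outer start: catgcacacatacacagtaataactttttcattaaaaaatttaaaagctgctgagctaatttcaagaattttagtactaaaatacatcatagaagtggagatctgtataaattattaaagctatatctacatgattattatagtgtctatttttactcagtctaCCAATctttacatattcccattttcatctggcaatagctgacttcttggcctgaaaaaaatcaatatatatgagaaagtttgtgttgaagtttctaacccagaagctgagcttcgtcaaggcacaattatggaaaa
Sall2 inner start: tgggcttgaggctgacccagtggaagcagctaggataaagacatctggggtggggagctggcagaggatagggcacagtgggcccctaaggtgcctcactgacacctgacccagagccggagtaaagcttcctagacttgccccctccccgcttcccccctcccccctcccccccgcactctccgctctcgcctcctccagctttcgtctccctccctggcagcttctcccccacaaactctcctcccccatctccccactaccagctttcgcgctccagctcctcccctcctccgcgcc

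Together, 3 of the 7 genes (Fgf5, Sox3 and Sall2) had both libraries of experiment 1 above all 3 of experiment 2, as did 17.0% of genes with a count and 7.58% of those with a mean under 1 CPM. The opposite held for 1 member, Foxd3, and for 12.9% of genes with a count. The 3 low genes rest on 13 to 24 counts over all libraries, and the filter that removed them left no test of their direction in the main comparison. Markers of the primitive endoderm and of the two-cell-like state had lower sums in experiment 2, as these 3 genes had lower levels. The fibroblast and neural sums were higher, mostly through Vim and through Pax6. The 7 primitive endoderm markers summed to 117 CPM in both libraries of experiment 1 and to 57.6 to 66.7 CPM in experiment 2, and Gata6, Dab2, Col4a1 and Sparc were called lower. Most of this sum was Sparc, with 89.7 to 96.2 CPM in experiment 1 and 52.3 to 59.8 CPM in experiment 2. The 4 markers of the two-cell-like state summed to 8.50 to 8.74 CPM in experiment 1 and to 0.294 to 2.57 CPM in experiment 2, and both that were tested, Zscan4c (−3.28 ± 0.60) and Zscan4d (−3.70 ± 1.01), were called lower. These are near-identical copies of 1 family, so the split of reads between them is uncertain. Of the fibroblast markers, Thy1 was called lower (−2.19 ± 0.21) and Vim higher (1.45 ± 0.12), with Col3a1 and Lum at 0 counts in every library. The 7 fibroblast markers summed to 140 to 151 CPM in experiment 1 and to 281 to 324 CPM in experiment 2. Most of this sum was Vim, with 109 to 116 CPM in experiment 1 and 271 to 317 CPM in experiment 2. Thy1 went the other way, from 31.5 ± 3.28 to 6.91 ± 0.197 CPM, and the median log2 fold change of the 3 tested was −0.99. The part of these cells in the levels of Fgf5, Sox3 and Sall2 was not tested.

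Levels of different genes were compared per kilobase for the 3 genes with a single exon. Foxd3 had 13.0 to 18.2 CPM per kilobase of its span over the 5 libraries, Pou3f1 0.750 to 1.57 and Sox3 0 to 0.282. On this scale the 3 ranges did not overlap.

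Between 10000 and 20000 cells, none of the 4 tested members was called by edgeR, and the share called among all genes tested was 0.00% (101 of 12523 at an unadjusted p under 0.05, and 0 after adjustment by DESeq2). None of the 4 had an unadjusted p under 0.05. Their log2 fold changes, 20000 over 10000 cells, were 0.47 ± 0.47 for Pou3f1, 0.46 ± 0.98 for Otx2, 0.37 ± 1.07 for Zic2 and 0.20 ± 0.23 for Foxd3, each with an adjusted p of 0.999. With the experiment as block, which compares libraries of the same day, the values were 0.47 ± 0.53 for Pou3f1, 0.80 ± 0.99 for Otx2, 0.60 ± 0.59 for Zic2 and 0.19 ± 0.17 for Foxd3 (adjusted p = 0.998). Pou3f1 and Zic2 were higher from 20000 than from 10000 cells in both experiments. Leaving out 1 library without the block turned the sign for Otx2, Zic2 and Foxd3, but such a fit mixes cell number with experiment. The main fit ignores the pairing by day and so leaves the difference between experiments in its spread. For Zic2 the standard error was 1.07 without the block and 0.59 with it. Foxd3, with 427 to 880 counts a library, had 0.23 and 0.17. With so few libraries, a difference of the size of the standard errors was not detectable.

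Beside the 7 genes, 24 other genes of the formative and primed states were followed, of which 19 had enough counts. Between experiments 6 of these 19 fell and 1 rose in experiment 2, with a median log2 fold change of −0.20 against 0.001 for all genes tested, of which 6.76% were called lower and 5.75% higher. By the size of the change, the leading ones were Fst, a secreted inhibitor of activin (−2.35 ± 0.75, adjusted p = 0.0396), Grhl2, an epithelial factor that opens enhancers in formative cells (−1.33 ± 0.36, adjusted p = 0.0163), Sox4 (1.26 ± 0.32, adjusted p = 0.0112) and the ephrin receptor gene Epha2 (−0.79 ± 0.19, adjusted p = 0.00684). The other 3 that fell were Tcf15, from 187 ± 4.43 to 116 ± 6.18 CPM, Nodal, from 59.1 ± 2.07 to 37.1 ± 11.8 CPM, and Utf1, from 576 ± 27.4 to 389 ± 37.5 CPM (SD, n = 2 each). These 3 fall outside the naming rule and were chosen after their values were seen. The de novo methyltransferase genes Dnmt3a and Dnmt3b, which rise in the formative state, did not pass the test (0.18 ± 0.16 and −0.23 ± 0.18). Without the library from 10000 cells of experiment 2, Tcf15 and Utf1 kept the call and Fst, Grhl2, Epha2 and Nodal lost it. Fst also lost it without either library from 20000 cells, with cell number as covariate and with the library from 5000 cells added. Grhl2 also lost it without the library from 10000 cells of experiment 1 or from 20000 cells of experiment 2, and Sox4 without the latter. Of the marker lists, 4 of 5 tested primitive endoderm genes and both tested two-cell-like genes were called lower in the same comparison. Of the neural markers Pax6 was called higher, and of the fibroblast markers Vim higher and Thy1 lower. Their part in the changes of the formative and naive lists was not tested.

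Of the 15 naive genes, all tested, 6 rose and 0 fell in experiment 2, with a median of 0.25, beside the same 5.75% higher and 6.76% lower among all genes tested. DESeq2 also called 0 lower, and 8 of the 15 had an unadjusted p under 0.05 in edgeR's test. One of these 8, Tbx3, was lower, with 25.5 ± 0.986 CPM against 17.6 ± 4.85 CPM (SD, n = 2 each; −0.53 ± 0.20, adjusted p = 0.0881). It was called lower with a mean of at least 10 CPM (adjusted p = 0.0473), with cell number as covariate (0.0465), with the library from 5000 cells added (0.0471) and without the library from 20000 cells of experiment 2 (0.0426). Nr5a2 was called lower without the library from 20000 cells of experiment 1 (−0.87 ± 0.28, adjusted p = 0.0228). Both were named after their values were seen. Dppa3, also known as Stella, rose from 1.04 ± 0.135 to 9.46 ± 2.89 CPM and was at 14.9 CPM from 5000 cells (3.17 ± 0.40, adjusted p = 5.85e-06). Fbxo15, a target of Oct4, rose from 23.3 ± 1.11 to 83.7 ± 11.1 CPM (1.84 ± 0.16, adjusted p = 1.36e-08). Tcl1, a coactivator of the kinase Akt, rose from 96.9 ± 2.07 to 204 ± 11.7 CPM (1.08 ± 0.12, adjusted p = 1.14e-06). Klf4 rose by less (0.42 ± 0.13, adjusted p = 0.0381). The other 2 were Klf2 and Zfp42, both on chromosome 8, and less the median of that chromosome both values were under 0, a shift for which there is no test. Without any 1 of 3 libraries (10000 and 20000 cells of experiment 1, 20000 cells of experiment 2) Klf2, Klf4 and Zfp42 lost the call, which left 3. The core genes Pou5f1, Sox2 and Sall4 were not called by edgeR or DESeq2, with 1 of 3 at an unadjusted p under 0.05. No listed gene of the 3 lists was called between 10000 and 20000 cells by edgeR or DESeq2, and 0 had an unadjusted p under 0.05 in edgeR's test.

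**Figure D2:**
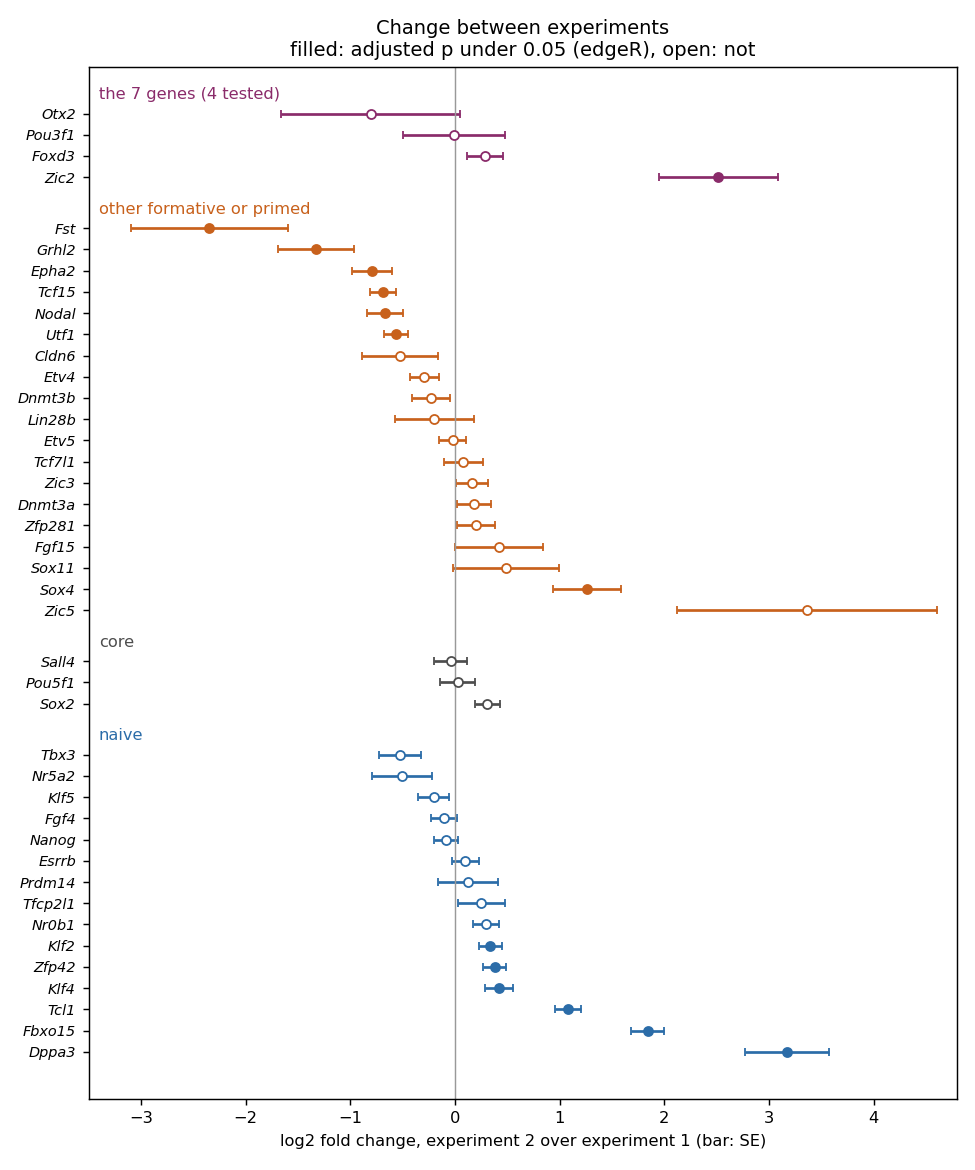
Log2 fold change of experiment 2 over experiment 1 with its standard error, from edgeR on the libraries from 10000 and 20000 cells, for the 4 tested members and the other listed genes, each list sorted by the change. Filled points have an adjusted p under 0.05. Zic2 is the filled point among the 4 members at 2.51, 6 other formative or primed genes are filled on the left and Sox4 on the right, and the 6 filled naive genes are all on the right.

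The genes most like each member in level over the 5 libraries were found by Pearson's r of log2(CPM + 1) over the genes that averaged 10 CPM or more, as a description with 5 points that share library and day. For Zic2 these were Wapl (r = 0.999) and Slc2a3 (r = 0.998), and 5.03% of such genes reached an r of 0.9. For Foxd3 the leading gene was Ncapd2 (r = 0.998). They were, for Pou3f1, Slc25a25 (r = 0.998) and Tbc1d7 (r = 0.996), and, for Otx2, Timm22 (r = 0.997) and Tspo (r = 0.993). Of the 8 genes that the rule gave, 5 were found again with a pseudocount of 0.1. The shares that reached 0.9 were 2.61% for Foxd3, 0.632% for Pou3f1 and 1.53% for Otx2.

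ATAC peaks mark stretches of DNA that the transposase Tn5 could reach. The authors' lists give each peak's position alone, without height or depth, and they differ in length: 9097 to 95457 peaks. A peak within 1000 bp of a gene's start is called a promoter peak here, and any other peak from 50000 bp before to 50000 bp after the gene a nearby one. Of the 56 pairs of a member and a list, 18 had a promoter peak (32.1%, 95% Wilson interval 21.4 to 45.2). The interval takes the pairs as independent, but they repeat the same 7 genes over the lists. It is therefore no measure of the spread between genes or lists. Pou3f1 alone gave 7 of the 18, and Foxd3 and Sall2 gave 0. The share was 12.5% with peaks of at least 50 bp, 3.57% with the 9097 widest peaks and 0% with the unified list of the series. By list, in the low-input lists, 2 of the 7 had one from 5000 cells, 0 and 2 from 10000 cells of experiments 1 and 2, and 1 and 4 from 20000 cells of experiments 1 and 2. Over all genes the shares in these lists were 31.1%, 31.1%, 40.5%, 37.4% and 50.3%. In the Omni-ATAC lists from 5000, 10000 and 50000 cells 1, 3 and 5 members had one, against 18.6%, 41.5% and 61.1% of all genes. A nearby peak was found for 4, 4, 6, 6 and 6 members in the low-input lists in the same order and for 4, 5 and 7 in the Omni-ATAC lists. Over all genes these shares were 65.8%, 65.4%, 75.6%, 73.3% and 83.6%, then 48.4%, 77.9% and 92.6%.

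Pou3f1 had a promoter peak in 7 of 8 lists, all but the low-input list from 10000 cells of experiment 1. The shared region, chr4:124657404-124657629, lies at −242 to −17 bp, counted from the start along transcription. In single lists it was 9 to 226 bp wide. Pou3f1 had a promoter peak in 2 lists when peaks had to be at least 50 bp wide, and in 2 with the 9097 widest peaks of each list. A promoter peak in at least 7 lists was found for 24.6% of all genes and for 15.7% of genes with a count and a mean under 5 CPM, the range in which Pou3f1 lies. Other regions were found 35688 bp after the start within Utp11 in 7 lists (chr4:124693334-124693768), near Sf3a3 in 6 lists and at −43380 bp in 4 lists. The unified list of the series held 2 of the 12 regions around Pou3f1, and the promoter region was not one of them.

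Foxd3 had no promoter peak in any list, which held for 38.4% of all genes but for 4.02% of the 6485 genes that averaged 10 CPM or more. In contrast, it had 5, 6, 6, 4 and 8 nearby peaks in the low-input lists (5000 cells, then 10000 cells of experiments 1 and 2, then 20000 cells of experiments 1 and 2) and 3, 4 and 14 in the Omni-ATAC lists from 5000, 10000 and 50000 cells. Over all genes the means were 1.89, 1.92, 3.0, 2.74 and 4.86 in the low-input lists and 0.950, 2.94 and 8.35 in the Omni-ATAC lists, so Foxd3 was above the mean in each of the 8. A region at −20271 to −19819 bp from the start (chr4:99636028-99636480) was in all 8 lists. Another at −14409 bp (chr4:99641890-99642324) was in 7, and those at −6079 bp (chr4:99650220-99650891) and 13909 bp (chr4:99670208-99670493) were in 6 each. These 4 regions lie between genes, their nearest start is that of Foxd3, and all 4 are in the unified list. With a window of 2500 bp, 1 list had a promoter peak at Foxd3.

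Zic2 had promoter peaks in 3 lists: low-input from 20000 cells of experiment 2, and Omni-ATAC from 10000 and 50000 cells. The regions, chr14:122474551-122474614 and chr14:122474980-122475347, lie within 2610035F20Rik. Their nearest start is that of 2610035F20Rik, at 585 and 0 bp. The nearby peaks of Zic2 rose most between the experiments among the 7 genes, from 0 to 5 with 10000 cells and from 1 to 10 with 20000 cells. These differences were larger than those of 95.9% and 98.2% of all genes. The lists of experiment 2 were themselves 1.58 and 1.83 times as long, and 45.4% of all genes had more nearby peaks in experiment 2 at both cell numbers. Among the members this held for Zic2 and Otx2. The list from 5000 cells of experiment 2 had 1 nearby peak at Zic2, as many as 20000 cells of experiment 1, and 18637 peaks in all. List length moves with this count, and its part was not tested.

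The regions around Zic2 in at least 4 lists were 5 of 21. The nearest lies at −1231 bp from the start, within 2610035F20Rik (chr14:122474153-122474349, 5 lists). Another lies 27 bp from the Zic5 start (chr14:122465491-122465631, 4 lists). Those at −41353 bp and −21835 bp are nearer to the start of Gm5089 than to that of Zic2, and 1 lies 15174 bp after the Zic2 start.

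Otx2 had a promoter peak in 3 lists (low-input from 5000 and 20000 cells of experiment 2, and Omni-ATAC from 50000 cells), 982 bp after the start at chr14:48666423-48666662, at the edge of the window. With a window of 500 bp no list had it. A region at −33693 bp, chr14:48700975-48701337, within the span of Otx2os1, was in all 5 low-input lists and in the Omni-ATAC list from 50000 cells. It was the one region of 12 around Otx2 in at least 4 lists.

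Fgf5 had promoter peaks in 2 lists, low-input from 20000 cells of experiment 2 and Omni-ATAC from 50000 cells. The latter peak, chr5:98254135-98254318, covers the start printed above, and the former is 9 bp wide and lies 489 bp after it. A region inside the gene, 1567 bp after the start (chr5:98255751-98256178), was in 4 lists: low-input from 10000 cells of experiment 2 and from 20000 cells of both experiments, and Omni-ATAC from 50000 cells. The 2 low-input lists of experiment 2 with that region came from cells whose mRNA libraries had 0 and 1 count of Fgf5.

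Sox3 had promoter peaks in 3 lists (low-input from 10000 cells of experiment 2, Omni-ATAC from 10000 and 50000 cells), at chrX:60893548-60893561 before the start. It had 1 nearby peak in the Omni-ATAC list from 50000 cells and none in the other 7 lists. Sall2 had no promoter peak at the start of the count table. Of the 11 regions around it, 1 was in 7 lists, and this region, chr14:52279292-52279643, lies at the start of Rab2b, 49027 bp from that of Sall2.

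**Figure D3:**
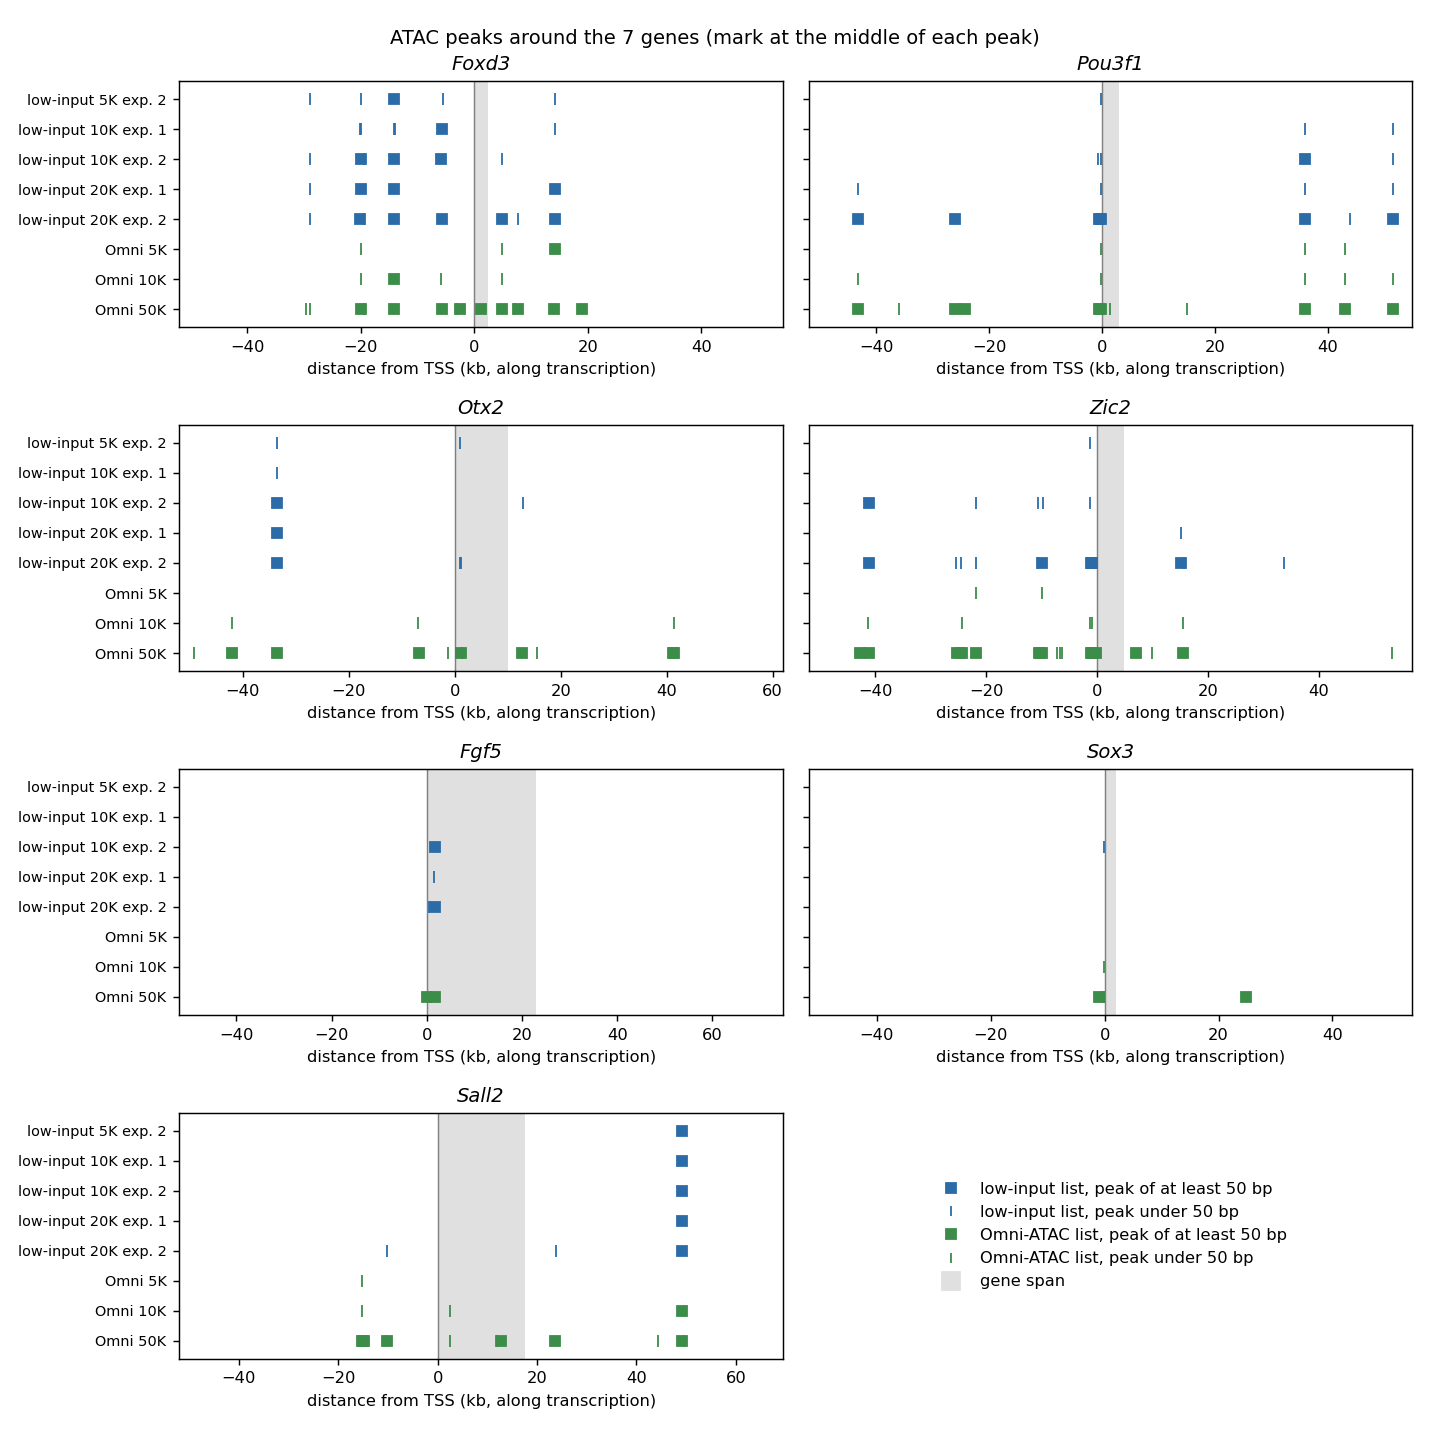
Peaks around each of the 7 genes in the 8 ATAC lists, at their distance in kilobases from the gene's start along its direction of transcription, with the gene in grey. Squares are peaks of at least 50 bp and ticks shorter ones, and a row is 1 list. Foxd3 has recurrent peaks on both sides and none at its start, Pou3f1 has one at its start in 7 lists, and Sox3 has almost none.

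**Figure D4:**
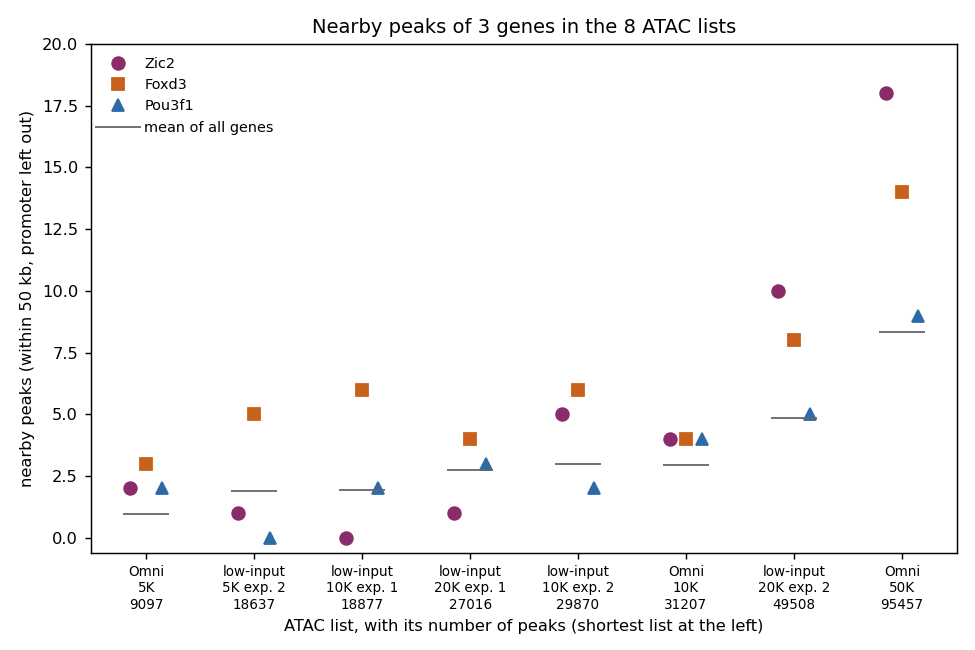
Number of nearby peaks of Zic2, Foxd3 and Pou3f1 in each ATAC list, with lists ordered by their total number of peaks and the mean of all genes as a line. Foxd3 is above the mean in all 8 lists. Zic2 is under it in the 3 low-input lists with 18637, 18877 and 27016 peaks and above it in the other 5.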

How the data were processed

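The mRNA table, as deposited, holds whole-number read counts of each gene in 5 libraries and, per the file headers, mm10 positions. ATAC peaks were deposited by the authors as 1 interval list per library and a unified list, with start and end and no score. The submitters' processing notes name cutadapt, Bowtie2 2.1.0, SAMtools 1.3.1, Picard, bedtools 2.24.0, MACS2 2.1.1, STAR 2.5, featureCounts and Subread 1.5.0-p1. Their settings, the annotation and the use of strand are not given in the sources used here. The shortest peaks are 9 bp, 24.4% to 59.2% of a list. Depth of the ATAC libraries is unknown.

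CPM, 95% Poisson intervals and the floor of 3 counts (counting error only, since reads carry no molecular identifiers) were computed from the counts. Experiments and cell numbers were compared by the quasi-likelihood test of edgeR 4.0.16 in R 4.3.3, after filterByExpr and TMM scaling and with p-values adjusted by Benjamini-Hochberg over 12523 genes (threshold 0.05), on the 4 libraries from 10000 and 20000 cells. The steps were tested on simulated counts. The single library from 5000 cells entered no main fit and was added in 1 alternative. The experiment number marks a shared day per the labels and so pairs libraries across cell numbers. Across genes, the change between experiments with 10000 cells correlated with that with 20000 cells (r = 0.536). No pair of libraries agreed within sampling noise (chi-square per gene of at least 10.1).

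A start is the 5′ end of a gene in the count table. Peak overlap needs 1 bp. Of the gene IDs, 24467 matched a RefSeq table of GRCm38.p6 (mm10), all 7 members among them, and no other gene overlaps a member. RefSeq promoter windows covered 4 of the 7 genes (Fgf5, Otx2, Foxd3 and Sall2), and motifs were searched on both strands. Scripts ran in Python 3.11.15 with pandas 2.3.3, numpy 2.4.6, scipy 1.17.1 and, for plots, matplotlib 3.10.9.

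The members and lists were chosen with earlier results of these data known. All members are named, with up to 4 genes of each list by the largest change among those called, and the 2 most alike genes of members with a mean of at least 1 CPM. Some items that these rules select are not reported here. Marker genes of other cell types were named where they were called in the direction of a member. The alternatives were DESeq2 1.42.0, RLE size factors, plain library size, no filter, a mean of at least 10 CPM, a log2 fold change of at least 1, cell number as covariate or experiment as block, adding the library from 5000 cells, subtracting the chromosome median, leaving out each library, other windows (500, 2500, 20000 and 100000 bp), peaks of at least 50 bp, the 9097 widest peaks, the unified list and a pseudocount of 0.1 in place of 1. All RefSeq starts, leaving out each of the 4 low-input ATAC lists from 10000 and 20000 cells, and TMM scaling of the library from 5000 cells were added after the data were seen.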

Additional observations from a re-analysis of the deposited data

How the results depend on the processing

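Zic2 kept its call under RLE size factors, library size alone, DESeq2, no filter and the cell number covariate. It lost it with the library from 5000 cells added (2.09), and over the leave-one-out fits its log2 fold change ran from 2.03 to 3.32 and its adjusted p from 4e-05 to 0.0977. At a mean of at least 10 CPM, Zic2, Otx2 and Pou3f1 were not tested. Pou3f1 had no stable sign: 0.0179 with no filter, 0.000542 with the covariate, 0.34 with the library added, 0.0148 less the chromosome median, and −0.26 to 0.32 with 1 library left out. The genes called between experiments were 612 with a log2 fold change of at least 1 and 803 to 1817 with 1 library left out. That fold minimum left 3 naive genes higher and 2 other formative genes lower. One naive gene was lower with a mean of at least 10 CPM, with the covariate and with the library added (1 each). Less the chromosome median 2 that had been called higher were under 0, with no test of the shifted values, while a mean of at least 10 CPM left 0 other formative genes higher. Leaving out 1 library gave 3 to 4 naive genes higher and 0 to 1 lower, and 0 to 1 other formative genes higher and 2 to 5 lower.

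Between cell numbers, 2 genes were called with no filter and 4 with the experiment as replicate block, none of them a member or a listed gene. With the block 4 members could be tested and no call on them changed. With 1 library left out the members' values ran from −1.06 to 2.73 for Zic2, −0.30 to 2.22 for Otx2 and −0.0517 to 0.43 for Foxd3. The share of gene and list pairs with a promoter peak was 12.5% with peaks of at least 50 bp, 3.57% with the widest peaks, 0% with the unified list and 28.6% to 36.7% with 1 of the 4 low-input lists from 10000 and 20000 cells left out (the other 4 lists were not left out). No share of all genes under the same restrictions is set beside these values. They therefore do not show whether the members differ from other genes in this respect. At Pou3f1, 2 lists kept the promoter peak when peaks had to be 50 bp wide. The cause of these shifts was not tested. Counts of 0 to 26, as for Otx2, Fgf5, Sox3 and Sall2, limit what can be said of them.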
